A study of Mus musculus with 7 samples.

Results

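The Notch receptors, ligands and targets described here are 10 genes picked by symbol from the 22738 gene rows of the deposited count tables. They are the receptors Notch1, Notch2 and Notch3, the ligands Jag1, Jag2, Dll1 and Dll4, and the target genes Hes1, Hey1 and Hey2. RNA was sequenced from epicardial cells, the outer layer of the heart, which had grown out of E12.5 mouse ventricles laid on gelatin for 48 hours and then cultured without the heart for 72 hours. The 4 wild type libraries and the 3 Lmnb1-/- libraries, which lack the nuclear lamina protein lamin B1, were of the same strain mix, C57BL/6;129S4Sv/Jae;129S6/SvEvTac, and received no treatment. The labels name no further allele, do not say how the Lmnb1 allele was made, and do not say whether replicates came from separate embryos or litters. The p-values therefore measure the spread between these libraries, which may be partly technical.

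In Notch signalling a ligand of the Jagged or Delta-like family on one cell binds a receptor on its neighbour. The receptor is cut by a disintegrin metalloprotease and then by gamma-secretase, and its freed intracellular domain enters the nucleus, where it binds the DNA-binding protein RBPJ and switches on target genes of the Hes and Hey families. In the heart, Notch signalling takes part in directing epicardium-derived cells to the mural fate, that of smooth muscle cells and pericytes.

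First-column totals ran from 1024898 to 3066936 counts per library, so that 3 counts were worth between 0.965 and 3.10 CPM (counts per 1000000 of a library total adjusted by the trimmed mean of M-values, TMM). Lmnb1 averaged 204 ± 24.6 CPM (SD, n = 4) in wild type, against 1.49 ± 0.498 CPM (SD, n = 3) in Lmnb1-/- explants. All 10 epicardial markers examined had counts, led by Msln and Upk3b, 0 of the 10 were called, and their summed level was 1743 to 2428 CPM in wild type against 1384 to 1716 CPM in Lmnb1-/- libraries. The list was not uniform: 7 of its genes had log2 fold changes below 0 and 3 above. An unadjusted p under 0.05 was reached by 5 of the 10, against 13.6% of all tested genes. Bnc1 had a log2 fold change of -0.49 and Krt8 0.87, neither called and both named after their values were seen. Wild type replicates 1 and 3 were female by Xist and Y-linked counts, and the other 5 libraries were male. The library numbers carried by the tables placed wild type replicate 1 next to Lmnb1-/- replicate 1, and wild type replicate 4 near Lmnb1-/- replicates 2 and 3. No batch is named in the labels.

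The wild type explants expressed a ligand, a receptor and targets of the pathway at different levels, led by Jag1, Hes1, Notch2 and Hey2. Of the 10 members, 9 had a count in some library and 6 (Notch1, Notch2, Notch3, Jag1, Hes1 and Hey2) passed the filter on low counts. Lmnb1-/- was compared with wild type by the quasi-likelihood test of edgeR, with p-values adjusted by Benjamini-Hochberg over 10775 genes and a threshold of 0.05. Of the 6 members 0 were called, against 0.705% of all tested genes (0.362% higher and 0.343% lower). At an unadjusted p under 0.05 there was 1 of 6 members, Notch3, against 13.6% of all tested genes. Notch3 passed the filter only through wild type libraries in which it was high, so this count is not evidence of a fall. DESeq2 gave an adjusted p to 4 of the 6 and called 0, with 1 under an unadjusted 0.05. The median log2 fold change (Lmnb1-/- over wild type) of the 6 was -0.013, with 3 below 0 and 3 above, beside a median of -0.015 and 52.4% below 0 over all tested genes.

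**Figure D1:**
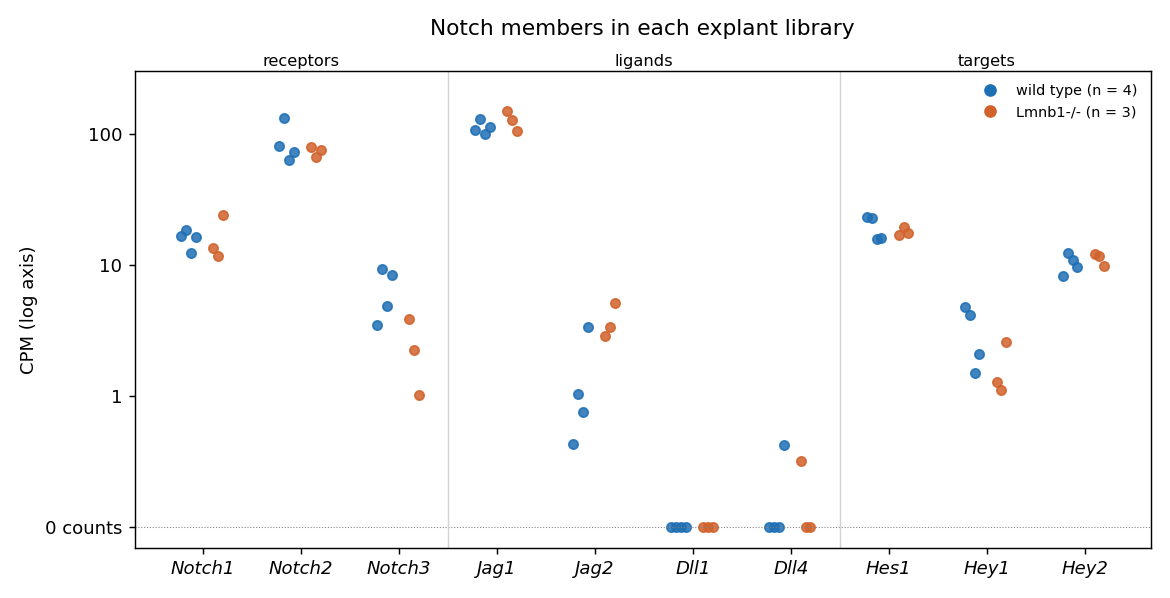
Level of each Notch member (CPM, log axis; libraries with 0 counts sit on the dotted line) in the 4 wild type and 3 Lmnb1-/- libraries, 1 point per library. The groups overlap in every member, Notch3 lies lowest in Lmnb1-/- replicate 3 at 1.03 CPM, and Dll1 is at 0 throughout.

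Per transcript length, Jag1 was the most abundant member. Its wild type mean was 20.01 ± 2.33 RPKM (CPM per kilobase of exon, SD, n = 4), followed by Hes1 at 13.2 ± 2.74 RPKM and Notch2 at 8.27 ± 2.90 RPKM. Hey2 stood at 4.05 ± 0.690 RPKM, Notch1 at 1.69 ± 0.272 RPKM, Hey1 at 1.29 ± 0.649 RPKM and Notch3 at 0.814 ± 0.347 RPKM. Jag2 was at 0.274 ± 0.262 RPKM, from 1 to 8 counts a library. In wild type the ranges of neighbours in this order overlapped for Hes1 and Notch2, and for each step from Notch1 through Hey1 and Notch3 to Jag2. They lay apart between Jag1 and Hes1, between Notch2 and Hey2, and between Hey2 and Notch1. The order of the first 5 genes was the same in Lmnb1-/- explants, where Jag1 was at 22.7 ± 3.95 RPKM and Hes1 at 12.3 ± 0.945 RPKM (SD, n = 3). Below them came Jag2 at 0.744 ± 0.232 RPKM, Hey1 at 0.685 ± 0.327 RPKM and Notch3 at 0.296 ± 0.177 RPKM. Neither Jag2 and Hey1 nor Hey1 and Notch3 were separated by their ranges there. Transcript lengths came from a later genome annotation than the counts, and their effect on this order was not tested.

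**Figure D2:**
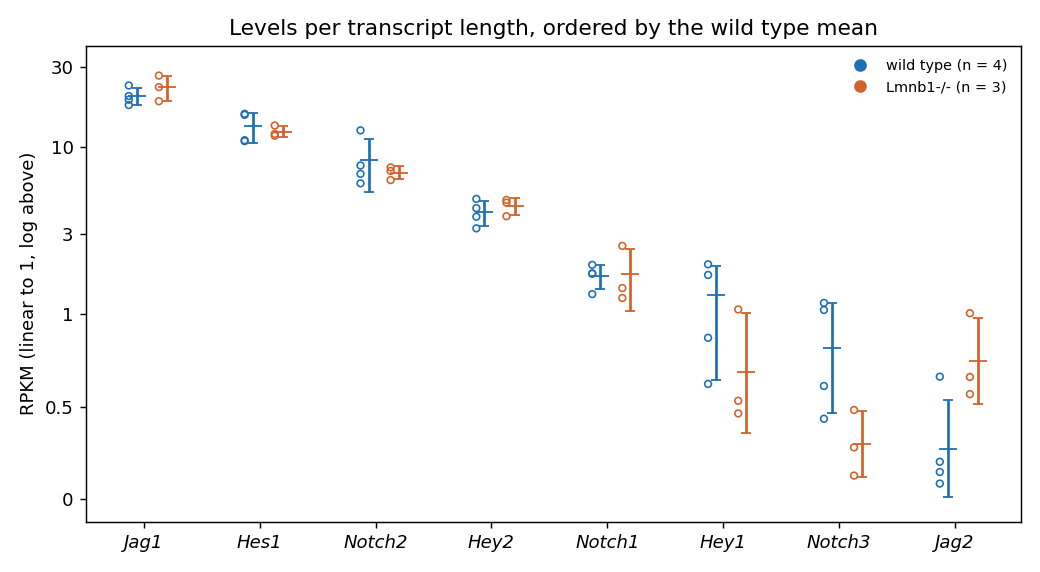
Level per transcript length (RPKM, axis linear up to 1 and logarithmic above) of the 8 members with more than 2 counts in all, ordered by the wild type mean. Open circles are libraries, and bars are the mean ± SD of 4 wild type and 3 Lmnb1-/- libraries. Jag1 leads in both groups (20.01 and 22.7 RPKM).

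Among the receptors, Notch2 made up most of the measured transcript. Its share of the summed RPKM of Notch1, Notch2 and Notch3 was 76.2 ± 3.81% in wild type (SD, n = 4) and 77.7 ± 4.28% in Lmnb1-/- explants (SD, n = 3). Notch1 held 16.2 ± 2.48% and 19.0 ± 6.03%. Notch3 held 7.60 ± 2.66% in wild type and 3.33 ± 1.92% in Lmnb1-/- explants. The lowest wild type share of Notch3, 4.39% in replicate 1, lay below the highest Lmnb1-/- share, 5.12% in replicate 1, so the groups overlapped.

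Notch3, the receptor best known from mural cells, passed the count filter only through wild type replicates 2, 3 and 4, where it was highest, and had no tested value when any of these was left out. Jag2, with at most 10 counts in any library, did not pass, so the sizes of tested and untested members are not ranked. In order of replicate, wild type libraries held 8, 9, 13 and 20 counts of Notch3 and Lmnb1-/- libraries 12, 4 and 2. These made 3.48, 9.30, 4.90 and 8.43 CPM against 3.86, 2.24 and 1.03 CPM. Wild type replicate 1 was below Lmnb1-/- replicate 1, and otherwise every wild type library was above every Lmnb1-/- library. The log2 fold change was -1.27 (SE 0.50, 95% interval -2.35 to -0.19, not adjusted for the number of genes; adjusted p = 0.290 by edgeR). Notch3 was not called. Without Lmnb1-/- replicate 1 the log2 fold change was -1.90, and without Lmnb1-/- replicate 3 it was -0.94. In these bulk cultures, fewer cells that express a gene and less RNA per cell cannot be told apart. By library number, wild type replicate 1 was not above its neighbour Lmnb1-/- replicate 1 (3.48 and 3.86 CPM), whereas wild type replicate 4 stood at 8.43 CPM beside 2.24 and 1.03 CPM in Lmnb1-/- replicates 2 and 3. Within male libraries the log2 fold change was -1.77 with an adjusted p of 0.160 in the same edgeR test. That fit kept wild type replicates 2 and 4, the highest in Notch3, and left out replicates 1 and 3. It therefore does not separate sex from the choice of libraries. With the groups of neighbouring numbers as a block the log2 fold change was -1.19 with an adjusted p of 0.471. Wild type replicates 2 and 3 formed a number group without an Lmnb1-/- library, so this value rests on the other libraries.

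Notch2, a broadly expressed receptor, had counts of 186, 127, 168 and 171 in wild type and 245, 118 and 146 in Lmnb1-/- libraries. Wild type replicate 2 was highest at 131 CPM, while the other wild type libraries at 80.9, 63.3 and 72.1 CPM surrounded the Lmnb1-/- libraries at 78.8, 66.2 and 75.0 CPM. The log2 fold change was -0.19 (SE 0.21, 95% interval -0.66 to 0.28, adjusted p = 0.739 by edgeR). It was 0.038 without wild type replicate 2. Notch1 was at 16.5, 18.6, 12.4 and 16.4 CPM in wild type against 13.5, 11.8 and 24.2 CPM in Lmnb1-/- libraries. Its highest and its lowest value both belonged to Lmnb1-/- libraries. The log2 fold change of Notch1 was 0.06 (SE 0.27, 95% interval -0.53 to 0.65, adjusted p = 0.9496 by edgeR), and it was -0.29 without Lmnb1-/- replicate 3. For both receptors a change of 2-fold lay outside the interval.

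Jag1, which encodes a Jagged ligand, was the best measured member, with 903 counts over the wild type and 895 over the Lmnb1-/- libraries. Wild type libraries stood at 107, 130, 99.4 and 113 CPM and Lmnb1-/- libraries at 149, 127 and 105 CPM. The groups overlapped, and the highest value came from Lmnb1-/- replicate 1. The log2 fold change was 0.20 (SE 0.14, adjusted p = 0.555 by edgeR), and its 95% interval of -0.096 to 0.49 spans 0.936 to 1.41 times the wild type level. Within each library the RPKM of Jag1 was 1.86 to 2.94 times that of Notch2 in wild type and 2.61 to 3.60 times in Lmnb1-/- explants.

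Jag2, the other Jagged ligand, was scarce and did not pass the count filter. Its counts were 1, 1, 2 and 8 in wild type and 9, 6 and 10 in Lmnb1-/- libraries, or 0.435, 1.03, 0.753 and 3.37 CPM against 2.89, 3.37 and 5.14 CPM. Wild type replicate 4 lay within the Lmnb1-/- range and the other wild type libraries below it. The pooled level was 2.53 times the wild type level, and for counting error alone the exact 95% bounds were 1.22 and 5.52. A fit with no count filter gave Jag2 a log2 fold change of 1.34 with SE 0.63 and an adjusted p of 0.428 (edgeR), so it was not called. The Delta-like ligands were at or near 0 counts. Dll1 had 0 counts in all 7 libraries, which allows a pooled level of up to 0.198 CPM. Dll4, the Delta-like ligand typical of arterial endothelium, had 1 count in wild type replicate 4, 1 in Lmnb1-/- replicate 1 and 0 elsewhere.

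The targets were measured at moderate to low levels. Hes1, a transcriptional repressor and common Notch target, was at 23.1, 22.7, 15.8 and 16.02 CPM in wild type against 17.0, 19.6 and 17.5 CPM in Lmnb1-/- libraries. All Lmnb1-/- values lay between the 2 higher and the 2 lower wild type values. The log2 fold change of Hes1 was -0.08 (SE 0.22, 95% interval -0.56 to 0.39, adjusted p = 0.901 by edgeR). Hey2, a related repressor of the cardiovascular system, had 8.26, 12.4, 10.9 and 9.70 CPM in wild type against 12.2, 11.8 and 9.76 CPM in Lmnb1-/- libraries, with overlapping groups. Its log2 fold change was 0.16 (SE 0.26, 95% interval -0.39 to 0.71, adjusted p = 0.826 by edgeR). A 2-fold change lay outside the interval of Hes1 and of Hey2. Hey1 did not pass the count filter. Its counts were 11, 4, 4 and 5 in wild type and 4, 2 and 5 in Lmnb1-/- libraries. Its CPM were 4.78, 4.13, 1.51 and 2.11 in wild type against 1.29, 1.12 and 2.57, and the groups overlapped. The pooled ratio of Hey1 was 0.556, with an exact 95% interval from 0.246 to 1.18 for counting error only. With no count filter its log2 fold change was -0.85 with SE 0.64 (adjusted p = 0.696 by edgeR).

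RBPJ recognises a short DNA motif, and the window before the Hey2 start is shown because Hey2 is the Notch target here whose promoter entry holds that motif. Promoter entries from RefSeq on GRCm38.p6 matched 8 of the 10 members, other than Hes1 and Hey1. The letters GTGGGAA, searched on both strands in the 250 bases before each start, were found in 1 of these 8 members, Hey2. Of 32851 promoter windows of that length, 5.42% held them. The shorter TGGGAA, which overlaps the longer motif, was in 21.6% of windows and among the members also in Hey2 alone. Capitals mark the match, which lies on the strand opposite to the one printed and begins 207 bases before the start. The window is chr10:30842784-30843033 on the minus strand. The match is a description of letters and not of binding.
Hey2: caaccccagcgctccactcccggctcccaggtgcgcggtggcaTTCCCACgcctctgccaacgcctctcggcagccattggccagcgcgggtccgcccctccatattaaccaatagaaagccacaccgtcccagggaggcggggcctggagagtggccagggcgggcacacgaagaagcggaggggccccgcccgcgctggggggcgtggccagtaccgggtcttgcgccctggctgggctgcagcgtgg

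Much of the rest of the pathway was detected, with no called difference. Of 59 further pathway genes 45 passed the count filter, and 0 of the 45 were called higher and 0 lower by edgeR. DESeq2 gave an adjusted p to 38 of them and called 0. Their median log2 fold change was -0.09, with 26 below 0 and 19 above. An unadjusted p under 0.05 was reached by 7 of the 45 in edgeR (3 higher and 4 lower) and 5 of the 45 in DESeq2, and CPM ranges did not overlap in 8 of the 45. The edgeR count is 15.6% of the 45, near the 13.6% of all tested genes, and over all tested genes the share without overlap was 13.3%. In 34 of the 45 the 95% interval excluded a 2-fold change in either direction.

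All 3 tested glycosyltransferases of the receptor had negative log2 fold changes, against 52.4% of all tested genes. A set of 3 genes is too small to read a direction from. Pofut1, which adds the O-fucose needed for ligand binding, was at 79.4 ± 4.69 CPM in wild type against 59.9 ± 4.44 CPM in Lmnb1-/- explants (log2 fold change -0.41, SE 0.13, adjusted p = 0.165 by edgeR). Its groups did not overlap, and its adjusted p was the smallest of the 45. Poglut1, an O-glucosyltransferase, had -0.17 and Lfng, a Fringe enzyme that elongates the fucose, also -0.17, and neither was called. Lfng, like Adam10 below, was named after its values were seen.

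Of the 8 tested proteases of receptor cleavage 7 had log2 fold changes above 0 and 1 below, and none was called. Adam10, the metalloprotease of ligand-induced cleavage, was at 365 ± 41.4 CPM in wild type against 388 ± 56.2 CPM in Lmnb1-/- explants. For Aph1a, a gamma-secretase subunit, the log2 fold change was 0.71 (SE 0.30, adjusted p = 0.324 by edgeR), but 90.7% of its counts were in a second count column of the tables, which the labels do not define and the values given elsewhere leave out. With both columns summed its value was 0.04. Aph1b, the paralogue of Aph1a, had -0.36 with 28.5% of its counts in that column.

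In the nuclear complex, 8 of 9 tested genes were below 0, against 52.4% of all tested genes, and none was called. The proteases leaned the other way, so no common direction of the pathway is read from these signs. Rbpj, named after its values were seen, was at 15.3 ± 3.11 CPM in wild type against 14.5 ± 3.18 CPM in Lmnb1-/- explants, with a log2 fold change of -0.08 (SE 0.26). Of its counts 86.9% were in the second column, and the value with both columns was 0.0092 (SE 0.11). The coactivator genes Crebbp and Maml3 had log2 fold changes of -0.44 and -0.64 (adjusted p = 0.399 and 0.516 by edgeR). Crebbp was highest in wild type replicate 2 (78.5 CPM), the shallowest library, and had -0.24 without that library. Among 11 tested corepressors, Hdac2, a histone deacetylase, was at 170 ± 14.8 CPM in wild type against 216 ± 14.3 CPM in Lmnb1-/- explants (0.34, adjusted p = 0.171). Ncor1, a corepressor scaffold, was at 149 ± 11.7 and 112 ± 19.4 CPM in the same order (-0.39, adjusted p = 0.203), both by edgeR. Tle1 and Ctbp2, named after their values were seen, had -0.59 and 0.35 and adjusted p-values of 0.207 and 0.208 by edgeR.

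Among 11 tested genes of endocytosis and turnover, Mib1, the ubiquitin ligase that activates ligands, had -0.26 and its relative Mib2 -0.32 (adjusted p = 0.330 and 0.501 by edgeR). Of the noncanonical ligands, Dlk1 was at 23.4 ± 8.91 CPM in wild type against 34.4 ± 21.8 CPM in Lmnb1-/- explants, a log2 fold change of 0.61 that was 0.05 without Lmnb1-/- replicate 3. Dlk2 had 0.34. Hes6, the only further target past the filter, had -0.15. Heyl, the Hey gene associated with Notch3 in smooth muscle, is named after its values were seen and did not pass the filter. Its counts were 4, 2, 11 and 3 in wild type and 2, 0 and 2 in Lmnb1-/- libraries. The CPM ranges did not overlap. The share without overlap, 13.3%, was taken over tested genes only, and Heyl is not one of them. The ranges of Heyl lay close, at 1.27 CPM in wild type replicate 4 and 1.03 CPM in Lmnb1-/- replicate 3. With no count filter the log2 fold change of Heyl was -1.92 with SE 0.83 (adjusted p = 0.367 by edgeR), and it was not called. Dner, which also missed the filter and is named after its values were seen, went the other way. It had 0 counts in all wild type libraries and 1, 0 and 5 in Lmnb1-/- libraries. With no count filter its log2 fold change was 4.05 with SE 1.61 (adjusted p = 0.312 by edgeR). Hes2 and Hes5 had no counts, and Nrarp, a feedback inhibitor, had 3 counts in wild type and 2 in Lmnb1-/- libraries.

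**Figure D3:**
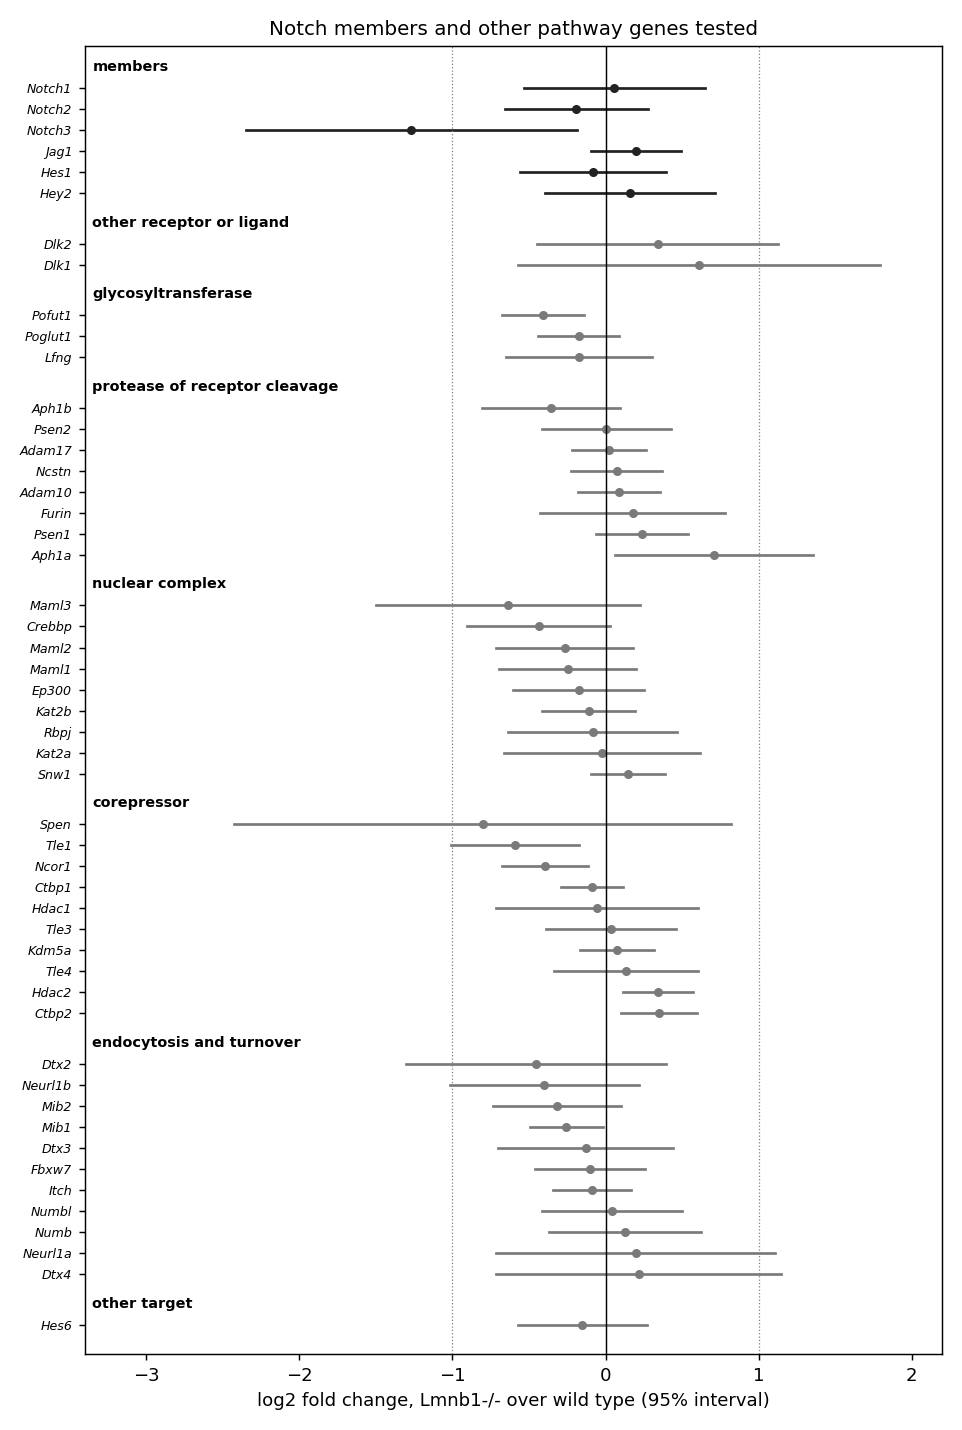
Log2 fold change of Lmnb1-/- over wild type with its 95% interval, unadjusted, for the 6 tested members (black) and 44 of the 45 other tested pathway genes (grey) by role. Dotted lines mark a 2-fold change. Notch3 is at -1.27, and no gene shown had an adjusted p under 0.05.

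Marker genes of other cell types were measured beside the members in the bulk RNA, which does not show whether such cells were present. Of 9 tested smooth muscle and pericyte markers 4 fell by the same test (Acta2, Des, Pdgfrb and Cspg4) and 0 rose. Of all tested genes 0.343% fell and 0.362% rose, but the list was chosen with earlier results of these data known. The summed level of all 12 markers was 11247 to 12805 CPM in wild type against 8653 to 9427 CPM in Lmnb1-/- libraries. Acta2 and Tagln, the most abundant of them, had log2 fold changes of -0.51 and -0.34, and only Acta2 was called. All 9 tested markers had values below 0, against 52.4% of all tested genes. However, the number called was 0 when wild type replicate 3 or either of Lmnb1-/- replicates 1 and 2 was left out. It was 1 without Lmnb1-/- replicate 3, and 2 within male libraries or with sex as a covariate. Within the list the mural genes Rgs5, Kcnj8 and Abcc9 were too scarce to test, and Rgs5 had 31 of its 37 wild type counts in replicate 3. Wild type replicate 1, the lowest wild type library for Notch3, was also the lowest wild type library in the summed level (11247 CPM). Myh11 (31.8 CPM) and Cnn1 (148 CPM), 2 contractile genes named after their values were seen, were lowest there, as were Acta2, Des and Mcam. Tagln was lowest in wild type replicate 2, and Pdgfrb, Cspg4 and Smtn in replicate 4, where Notch3 was at 8.43 CPM. Mcam and Smtn were likewise named after their values were seen. Within Lmnb1-/- libraries, replicate 1 was highest in Notch3 (3.86 CPM). It was lowest of them in the summed level (8653 CPM), Myh11 (17.4 CPM) and Cnn1 (96.5 CPM). The part of these markers in the Notch3 values was not tested.

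Endothelial markers summed to 63.1 to 89.2 CPM in wild type against 66.3 to 89.7 CPM in Lmnb1-/- libraries. Most of that came from Flt1 and Tek, whereas Cldn5 was at 0 in all libraries and Pecam1 and Cdh5 had at most 8 counts each. Of the 12 endothelial markers 4 were tested and 0 called, with Flt1 and Tek at log2 fold changes of -0.11 and -0.50. The scarcer Kdr and Egfl7, named after their values were seen, went the other way without overlap of the groups, as in 13.3% of all tested genes. Kdr went from 3.29 ± 1.40 to 8.80 ± 1.62 CPM and Egfl7 from 5.32 ± 1.03 to 8.26 ± 2.63 CPM. Their log2 fold changes were 1.40 and 0.57, with adjusted p of 0.122 and 0.474 by edgeR. Macrophage markers varied between libraries of the same group, from 67.2 to 331 CPM in wild type (highest in replicate 4) and from 43.1 to 547 CPM in Lmnb1-/- libraries (highest in replicate 3), led by Csf1r and Lyz2. Of these 10 markers 7 were tested and 0 called. Jag2 was also highest in replicate 4 within wild type (3.37 CPM) and in replicate 3 within Lmnb1-/- libraries (5.14 CPM). In Lmnb1-/- replicate 1, where the macrophage sum was lowest, it stood at 2.89 CPM. Cardiomyocyte markers summed to 546 to 872 CPM in wild type against 542 to 697 CPM in Lmnb1-/- libraries, mostly Myl7 and Tnnt2, and Myh7 was at 0 throughout. The part of such cells, if present, in the Notch values was not tested.

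**Figure D4:**
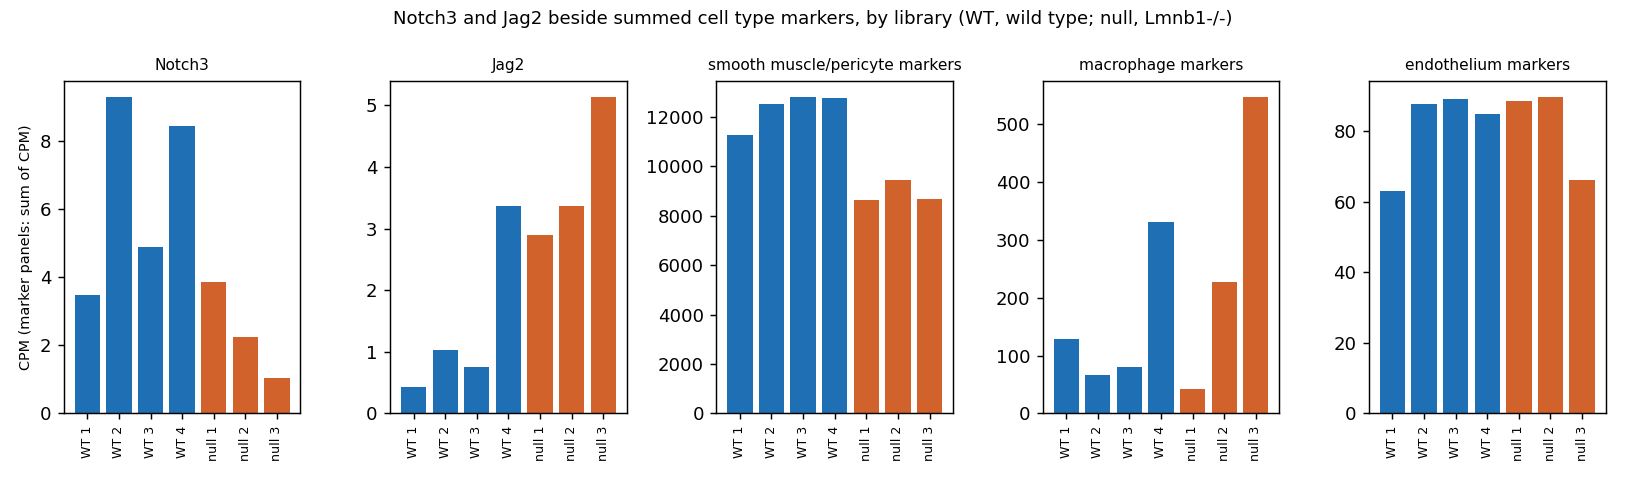
CPM of Notch3 and Jag2 in each library (bars, linear axis from 0) beside the summed CPM of smooth muscle and pericyte, macrophage and endothelial markers. The smooth muscle and pericyte sums are lower in all 3 Lmnb1-/- libraries (8653 to 9427 CPM). Among wild type libraries, replicate 1 is lowest both in that sum (11247 CPM) and in Notch3 (3.48 CPM). Among Lmnb1-/- libraries, replicate 1 is lowest in that sum (8653 CPM) but highest in Notch3 (3.86 CPM).

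The 5 genes whose log2 CPM followed Notch3 most closely over the 7 libraries, among 9672 genes searched with a mean log2 CPM of at least 3, were Abca5, Rabep1, Ubr1, Myef2 and A230046K03Rik. Pearson's r was 0.989 for Abca5 and 0.978 for A230046K03Rik, and Spearman's rho was 0.964 to 1 for the 5. Notch3 rests on 2 to 20 counts a library, and the 7 points share libraries and depth, so the list is only a description. None of the 5 was called, with log2 fold changes from -0.39 for Abca5 to -0.17 for A230046K03Rik.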

How the data were processed

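Per the submitters' processing notes the authors used TopHat, edgeR and mm9, without versions. For the counting program and the annotation, the labels name none. Each deposited table holds 2 unnamed columns of whole-number counts per gene; the first was used, and the second, 16.6 to 19.6% of all counts, was 0 for all members. Genes were filtered with filterByExpr, scaled by TMM and tested with edgeR 4.0.16 (R 4.3.3, limma 3.58.1), quasi-likelihood with robust dispersion and no covariate. A trial on simulated counts used a single dispersion and changed only genes with more counts than Notch3, Jag2 or Hey1. It is therefore no check of the test for these members. The standard error is the log2 fold change over the square root of F. DESeq2 1.42.0 was an alternative. RPKM used exon lengths of GENCODE vM21, GRCm38. Members and lists were chosen with earlier results of these data known. All members, Lmnb1, the 2 pathway genes of smallest p per role, the 2 most abundant markers per list and the 5 genes most like Notch3 are named. Of the markers, 1 matched by an older symbol. Replicates within a group differed by a chi-square of 2.26 to 7.94 per degree of freedom, more than sampling noise. Sex (Xist count over 50) and library numbers (gap of at most 2) entered as alternatives. Of the pathway genes counted, 1 is not reported here by name.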

Additional observations from a re-analysis of the deposited data

Results flagged for a closer look

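Dll4 in wild type replicate 4 stood apart from the other wild type libraries at 0.422 CPM, which was 1 count against 0 in replicates 1 to 3. A gene with 1 count in 1 of 4 libraries is always set apart in this way.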

How the results depend on the processing

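The counts of called members and of other pathway genes were 0 under all 17 alternatives, the fit with the replicate block included. The replicate block gave 77 called genes over all, against 76. Libraries with the same replicate number deviated from their group means with correlations of 0.26, -0.16 and -0.09, so these numbers were not taken as pairs. The highest such correlations across groups were those of neighbours by library number. They were 0.33 for wild type replicate 4 with Lmnb1-/- replicate 3, 0.26 for replicates 1 of both groups, and 0.19 for wild type replicate 4 with Lmnb1-/- replicate 2. What lies behind this was not tested. The total of called genes was 180 with no count filter, 175 with DESeq2, 44 with both count columns and 38 with sex as a covariate. Library totals without scaling factors gave 47 higher and 26 lower, against 39 and 37. Leaving out single libraries gave 3 to 279: 279, 40, 4 and 28 without wild type replicates 1 to 4, and 4, 3 and 13 without Lmnb1-/- replicates 1 to 3. Log2 fold changes near 0 turned sign. With sex as a covariate Notch1 was -0.081, Rbpj 0.052 and Adam10 -0.012. Within male libraries they were -0.082, 0.049 and -0.014. With number groups as a block Notch1 was -0.049 and Rbpj 0.11, and with both columns Rbpj was 0.0092. On leaving out single libraries Notch1 ran from -0.29 to 0.23, Notch2 from -0.32 to 0.038, Hes1 from -0.18 to 0.033, Rbpj from -0.21 to 0.11 and Adam10 from -0.011 to 0.19. The cause was not tested. Notch3 ran from -1.90 (without Lmnb1-/- replicate 1) to -0.94 (without Lmnb1-/- replicate 3) in the 14 alternatives that tested it, with adjusted p from 0.125 to 0.557 in edgeR and none given by DESeq2. It missed the count filter without wild type replicates 2, 3 or 4. The other genes recomputed kept their sign. Alternatives for the smooth muscle and pericyte count, 0 to 6 called lower, were chosen after seeing the data. Depth left Jag2, Hey1, Dll1 and Dll4 under the count filter.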

Other observations

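Wild type replicate 2, the shallowest library, held the highest CPM of all 7 libraries in 20 of the 51 tested members and pathway genes, or 39.2%, against 24.3% of all tested genes. Notch2, Notch3, Hey2 and the nuclear genes Maml1, Crebbp and Ep300 were among the 20. The corepressor gene Spen was at 61.0 CPM there, while the other 6 libraries ranged from 9.28 to 19.0 CPM. Among pathway genes the second count column held 90.8% of the counts of Psenen and 87.3% of those of Hdac1.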
